A study of Mus musculus with 6 samples.

Results

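Mitochondrial fatty acid uptake and oxidation was described from 35 genes, taken by symbol from a named list out of the 55401 genes of a read count table. The table holds RNA-seq of glomeruli, the filtering units of the kidney, isolated from mice in 2 groups of 3 libraries. The groups are named Control and DKD, which the series title spells out as diabetic kidney disease. Both names are entered as genotypes, while strain, age, sex, alleles and the way the disease was brought about are not stated in these labels. The libraries are numbered with no statement on whether they are separate animals, so every p-value below refers to the spread among the 6 libraries only. All 35 members were among the 19717 genes that passed a filter on low counts.

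Fatty acids enter a cell through membrane transporters, are held by binding proteins and are activated to acyl-CoA. The carnitine shuttle carries long chains into the mitochondrial matrix, where the oxidation spiral shortens them by repeated dehydrogenation, hydration, dehydrogenation and thiolysis. Electrons pass through the electron transfer flavoprotein to the respiratory chain, and fatty acids that are not burned are stored in lipid droplets. In the kidney the proximal tubule depends heavily on this pathway, and many of its genes are targets of the nuclear receptor PPAR alpha.

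The libraries held 71154026 to 83576494 counts. Control replicate 3 stood apart, since its log levels across genes correlated at 0.956 and 0.954 with the other Control libraries, which correlated at 0.98 with each other. Those other Control libraries were closer to DKD replicate 2, at 0.963 and 0.966, than to Control replicate 3. With DKD replicates 1 and 3 their correlations ran from 0.948 to 0.954. All 12 podocyte markers, Nphs1 among them, were detected in every library and together took 0.08%, 0.0648% and 0.0458% of the counts in Control and 0.0346%, 0.0371% and 0.047% in DKD. The groups overlapped, the median log2 fold change of these markers was −0.54, and 10 of 12 were below 0. Endothelial markers had a median of −0.61 with 8 of 9 below 0, and mesangial markers −0.56 with 7 of 8. The 20 proximal tubule markers took 3.74%, 3.97% and 5.95% in Control and 2.92%, 3.13% and 2.11% in DKD. Their median was −0.94, and 18 of 20 were below 0. The 9 markers of loop, distal tubule and collecting duct took 0.596%, 0.692% and 0.501% in Control and 0.448%, 0.672% and 0.39% in DKD. The median of these 9 was −0.25, with 6 below 0 and 3 above. Both tubule lists took more of the counts than the podocyte list in every library. Mitochondrially encoded genes took 11.8%, 10.6% and 12.2% of the counts in Control and 18.7%, 15.3% and 18.4% in DKD, without overlap. In such bulk samples fewer cells of a type and less RNA per cell cannot be told apart. The part of these cell types and of the mitochondrially encoded share in the results was not tested. The same 5 members were called with mitochondrially encoded genes left out. That refit only drops rows and cannot show what the higher mitochondrial share in DKD reflects.

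Of the 35 members 5 rose in DKD and 0 fell. Those that rose were the thioesterase Acot2, the carnitine palmitoyltransferase form Cpt1b, the acylcarnitine carrier Slc25a20, the lipase inhibitor Angptl4 and the uncoupling protein Ucp2, with log2 fold changes of DKD over Control between 0.94 and 1.70. The test was edgeR's quasi-likelihood test with Benjamini-Hochberg adjustment over all genes tested, and a change meant an adjusted p under 0.05. By that rule 1.16% of all genes changed, 0.725% rising and 0.431% falling. DESeq2 called 16 members higher and 0 lower, beside 6.4% and 5.42% of all genes. Limma-voom called 5 higher and 0 lower, beside 0.639% of all genes called higher. At an edgeR adjusted p under 0.1, 13 members were higher and 0 lower, beside 4.29% and 3.21% of all genes.

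Direction was uneven across the members. An unadjusted p under 0.05 was reached by 19 members that were higher and 1 that was lower, the acyl-CoA synthetase Acsl3, beside 11.8% and 10.9% of all genes. In 18 members every DKD library was above every Control library, and in 1, Cpt1a, every DKD library was below, beside 15.5% and 15.2% of all genes. A log2 fold change above 0 was seen in 25 of 35, beside 50.2% of all genes. The median log2 fold change was 0.46 among members and 0.0029 among all genes tested. Scaling by library totals alone shifted these medians to 0.34 and −0.13. With a trend on transcript length removed they were 0.48 and −0.03, and 13 members, not 19, were higher at an unadjusted p under 0.05.

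Whether the 5 passed depended on which library was left out, as did the number of calls in the whole table. None of the 5 passed when Control replicate 1, Control replicate 2, DKD replicate 1 or DKD replicate 3 was left out, in fits that called 1, 13, 4 and 10 genes of the whole table. All 5 passed without Control replicate 3, where 9 members and 386 of 20515 genes were called, and without DKD replicate 2, where 6 members and 298 of 20449 genes were called.

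**Figure D1:**
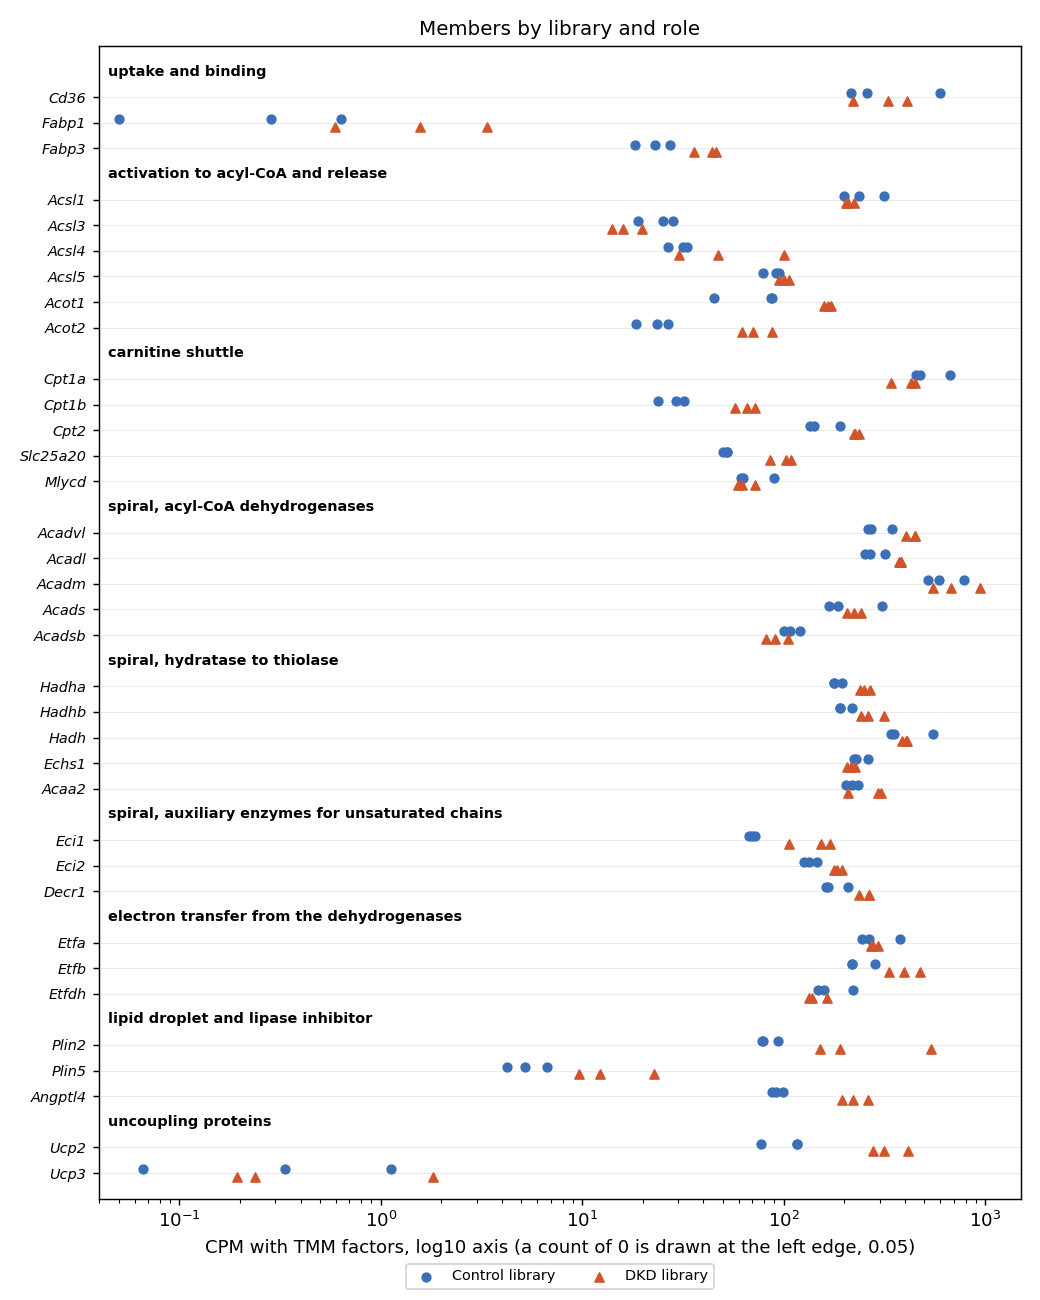
Level of each member in each library in CPM, counts scaled by library size with TMM factors (log10 axis, a count of 0 at the left edge), with Control libraries as circles and DKD libraries as triangles, grouped by role. In 18 of the 35 members all triangles lie to the right of all circles, and in Cpt1a they lie to the left.

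Promoters were searched because PPAR alpha is a known regulator of the family and many members had higher values together. RefSeq promoter windows (build GRCm38.p6) were found by symbol for 31 of the 35 members, as 33 windows, and Cpt1b, Acaa2, Decr1 and Angptl4 were not matched. The 250 bases upstream of each start were searched on both strands for the direct repeat element of PPAR and RXR, which is AGGTCA written 2 times with any 1 base between, allowing 2 mismatches. The element of oestrogen-related receptors, TNAAGGTCA, was searched with no mismatch, and its last 6 letters are those of the repeat unit. The direct repeat matched in 6 of 33 member windows (18.2%) and in 3.24% of all 32851 windows, and TNAAGGTCA matched in 0 member windows and in 1.14% of all. The 6 matches are shown 5′ to 3′ on the strand of the gene, with the match in capitals and its flanks in lower case. They are letter matches, and binding was not measured.
Fabp1, chr6:71199787-71199849, + strand: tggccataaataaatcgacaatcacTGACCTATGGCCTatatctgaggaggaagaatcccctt
Cd36, chr5:17835922-17835984, − strand: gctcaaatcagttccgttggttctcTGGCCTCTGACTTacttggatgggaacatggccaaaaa
Plin2, chr4:86670247-86670309, − strand: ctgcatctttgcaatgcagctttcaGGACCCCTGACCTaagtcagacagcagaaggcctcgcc
Etfa, chr9:55512283-55512345, − strand: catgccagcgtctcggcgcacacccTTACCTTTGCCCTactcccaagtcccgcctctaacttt
Echs1, chr7:140116467-140116529, − strand: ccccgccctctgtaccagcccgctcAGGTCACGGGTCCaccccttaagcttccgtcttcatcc
Ucp3, chr7:100472915-100472977, + strand: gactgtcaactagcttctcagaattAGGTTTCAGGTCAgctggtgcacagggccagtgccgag
In Fabp1, Cd36, Plin2 and Etfa the repeat lies on the opposite strand, so in the strand shown its unit AGGTCA would read TGACCT. Fabp1 had 1 mismatch and the others 2. None of these 6 genes was among the 5 that rose, and the windows of Acot2, Slc25a20 and Ucp2 held no match.

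Uptake and binding genes did not pass the test. Cd36, the membrane receptor for long-chain fatty acids, stood at 216, 259 and 598 CPM in Control replicates 1 to 3 and at 220, 330 and 410 CPM in DKD replicates 1 to 3. The groups overlapped and Control replicate 3 was the highest of the 6, with a log2 fold change of −0.16 ± 0.41 (SE, as after each fold change below). Its direction rested on single libraries, since leaving out Control replicate 3 gave 0.43 and leaving out DKD replicate 1 gave 0.05. Fabp1, the liver-type binding protein, was at the edge of detection, at 0.634, 0.284 and 0 CPM in Control against 3.36, 0.596 and 1.57 CPM in DKD. Its groups overlapped (2.58 ± 1.18). Fabp3, the binding protein of heart and muscle, ranged from 18.2 to 27.2 CPM in Control and from 36 to 46.1 CPM in DKD, with no overlap (0.88 ± 0.17, edgeR adjusted p 0.0573). The adjusted p was 0.0381 without Control replicate 3 and 0.0965 to 0.173 with each other library left out. The copy Fabp3-ps1 holds 35.2% of the 31-base words of Fabp3 and was at most 0.583 CPM in any library.

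Long-chain acyl-CoA synthetases join fatty acids to coenzyme A, and none of the 4 passed. Acsl1, with the highest level per length of its role in Control, stood at 314, 236 and 200 CPM there and at 204, 224 and 208 CPM in DKD. Each of these DKD values was inside the Control range (−0.24 ± 0.18). Acsl3 stood at 25.3, 28.3 and 18.9 CPM in Control against 16, 14.1 and 19.8 CPM in DKD. The groups met at Control replicate 3 and DKD replicate 3 (−0.54 ± 0.19, edgeR adjusted p 0.16). Acsl4, which prefers arachidonic acid, ranged from 26.8 to 33.3 CPM in Control and from 30.3 to 101 CPM in DKD, and its log2 fold change of 0.96 ± 0.40 was 0.34 without DKD replicate 3. Acsl5 was 88.6 ± 8.53 CPM in Control and 101 ± 5.94 in DKD (SD, n = 3 each), a log2 fold change of 0.19 ± 0.12.

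Acyl-CoA thioesterases split the fatty acid from coenzyme A, Acot1 in the cytosol and Acot2 in mitochondria. Acot2 stood at 26.7, 23.6 and 18.6 CPM in Control and rose to 70.2, 62.1 and 88.1 CPM in DKD. The gap between the groups was wider than the range inside either (1.68 ± 0.18, edgeR adjusted p 0.0192). Acot1 stood at 86.7, 87.8 and 45.4 CPM in Control against 158, 171 and 167 CPM in DKD. Its groups did not overlap, and Control replicate 3 was far below the other Control libraries (1.17 ± 0.25, edgeR adjusted p 0.0637). This adjusted p was 0.0193 without Control replicate 3 and 0.0923 to 0.185 with each other library left out. The paralogs share sequence, since Acot1 holds 29.9% of the 31-base words of Acot2, so the division of reads between them is uncertain.

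The carnitine shuttle held 2 of the 5 members that rose. Carnitine palmitoyltransferase 1 moves acyl chains onto carnitine at the outer mitochondrial membrane and is the step that malonyl-CoA inhibits. Its liver form, Cpt1a, was the more abundant, at 124 ± 27.9 CPM per kilobase of transcript in Control, against 9.81 ± 1.42 for the muscle form Cpt1b (SD, n = 3). Cpt1a stood at 478, 452 and 672 CPM in Control and at 427, 449 and 341 CPM in DKD. Every DKD library was lower, though DKD replicate 2 nearly met Control replicate 2 (−0.40 ± 0.20, edgeR adjusted p 0.295). Cpt1b stood at 32.1, 29.2 and 23.9 CPM in Control and rose to 57.5, 71.8 and 65.7 CPM in DKD (1.19 ± 0.15, edgeR adjusted p 0.0262). By library totals alone its adjusted p was 0.0675. The 9 striated muscle markers summed to 2.45, 3.64 and 2.42 CPM in Control and to 2.66, 1.94 and 2.86 CPM in DKD. Ckm, a defining marker, was at 0 in Control replicate 3 and DKD replicates 1 and 2. Acta1 stood at 0.0478, 0.111 and 0 CPM in Control and at 0.881, 0.471 and 0.659 CPM in DKD. Actc1 was also higher in every DKD library. Myh7 went the other way, at 0.263, 0.383 and 0.449 CPM in Control and 0.105, 0.18 and 0.0561 CPM in DKD. Myh6 was also lower in every DKD library. The median log2 fold change of the 5 muscle markers tested was −0.79. The part of muscle cells in the Cpt1b values was not tested.

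The Cpt1b to Cpt1a ratio per length was 0.1, 0.0964 and 0.0531 in Control and 0.201, 0.239 and 0.288 in DKD. The ratios did not overlap, and Cpt1a stayed the more abundant form in all 6 libraries. The gene model Gm44502 lies on the same strand over 81.4% of the exonic bases of Cpt1b, so reads could be counted for either. Gm44502 was 10 ± 4.88 CPM in Control and 12.5 ± 5.16 in DKD (SD, n = 3 each).

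Slc25a20, which exchanges acylcarnitine for carnitine across the inner membrane, stood at 52.4, 50.3 and 52.2 CPM in Control and rose to 103, 85.4 and 109 CPM in DKD. The Control libraries were close together and the DKD libraries all well above them (0.94 ± 0.12, edgeR adjusted p 0.0264). The adjusted p was 0.054 with no filter on low counts and 0.0594 with a trend on transcript length removed. Cpt2, which returns the chain to coenzyme A in the matrix, ranged from 136 to 191 CPM in Control and from 223 to 238 CPM in DKD (0.55 ± 0.16, edgeR adjusted p 0.108). That p was 0.0349 without Control replicate 3 and 0.193 to 0.293 with each other library left out. Mlycd, which degrades malonyl-CoA, ranged from 61.2 to 90.1 CPM and from 59.6 to 72 CPM, with overlap (−0.15 ± 0.17, and 0.05 without Control replicate 3).

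**Figure D2:**
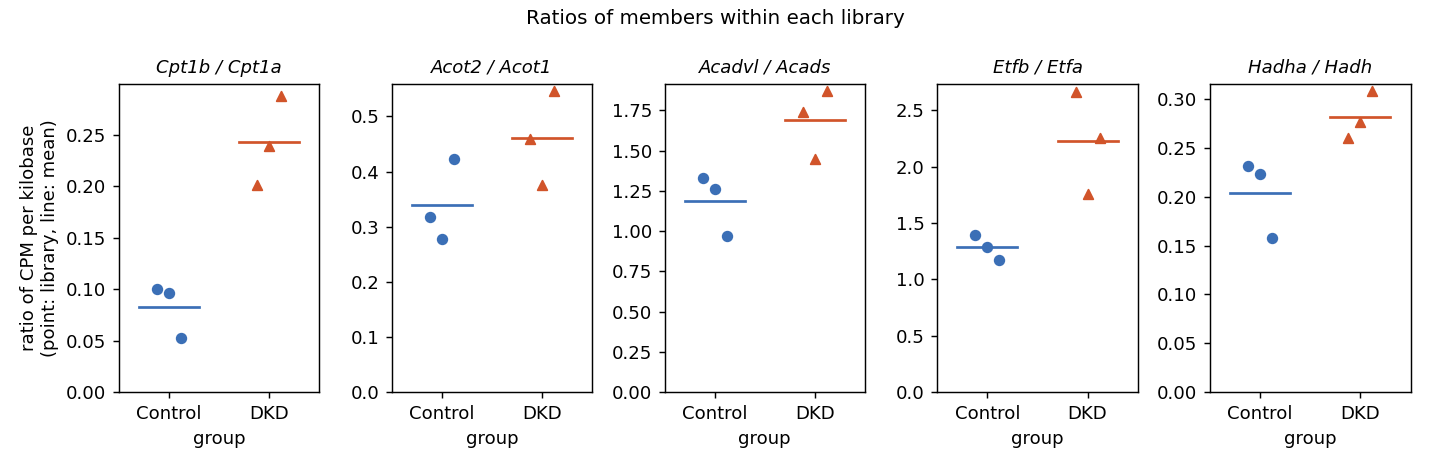
Ratios of CPM per kilobase between 5 pairs of members within each library, on linear axes from 0, with circles for Control, triangles for DKD and a line at each group mean. The Cpt1b to Cpt1a ratio lies between 0.0531 and 0.1 in Control and between 0.201 and 0.288 in DKD, while the Acot2 to Acot1 ratios overlap.

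The pairs in that plot were chosen after their values were seen, and the ratios were not tested.

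Spiral enzymes did not pass the edgeR test in any of 13 cases. Of these 7 had an unadjusted p under 0.05, all higher in DKD, beside 11.8% of all genes. DESeq2 called 5 higher, beside 6.4% of all genes, and limma-voom called 0. Their median log2 fold change was 0.44, and 10 were above 0, beside 50.2% of all genes. Control replicate 3 was the highest Control library for 11 of the 13. It also had the largest share of proximal tubule marker counts, and the part of tubule cells in these values was not tested. How often a given library was highest over all genes was not counted, here or below.

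Acyl-CoA dehydrogenases open each turn and divide the work by chain length. Acadvl, for very long chains, stood at 261, 273 and 347 CPM in Control and at 449, 407 and 449 CPM in DKD. The groups did not overlap (0.57 ± 0.16, edgeR adjusted p 0.101), and the adjusted p was 0.0444 without Control replicate 3 and 0.137 to 0.285 with each other library left out. Dvl2, on the opposite strand over 42.9% of the exonic bases of Acadvl, was 14.9 ± 0.764 CPM in Control and 15 ± 2.26 in DKD (SD, n = 3 each). Acadl, for long chains, ranged from 253 to 320 CPM in Control and from 373 to 383 CPM in DKD, again with no overlap (0.44 ± 0.14). Acadm, for medium chains, stood at 522, 592 and 786 CPM in Control and at 679, 943 and 552 CPM in DKD. These overlapped, with DKD replicate 2 highest, and the log2 fold change of 0.19 ± 0.25 was −0.06 without that library.

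Acads, for short chains, ranged from 169 to 309 CPM in Control and from 207 to 242 CPM in DKD (0.02 ± 0.24), and its direction changed between settings, being −0.07 by library totals. The 4 values thus stood in the order of chain length, an order noticed after the values were seen and not tested, in which neighbours differed by less than the sum of their standard errors. Acadsb, for short branched chains, stood at 101, 108 and 121 CPM in Control and at 90.6, 105 and 81.9 CPM in DKD. Its groups overlapped through DKD replicate 2 (−0.25 ± 0.14).

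The following steps are carried out for long chains by the trifunctional protein, made of Hadha and Hadhb, and for shorter chains by separate matrix enzymes. Hadha, the subunit with hydratase and dehydrogenase activity, stood at 177, 178 and 195 CPM in Control and at 239, 251 and 269 CPM in DKD. No library overlapped (0.46 ± 0.12, edgeR adjusted p 0.0901). Hadhb, the thiolase subunit, ranged from 190 to 219 CPM and from 242 to 316 CPM, with nearly the same fold change (0.45 ± 0.15, edgeR adjusted p 0.139). The copy Gm13910 holds 19.5% of the 31-base words of Hadhb and was 49.6 ± 8.39 CPM in Control and 59.4 ± 8.53 in DKD (SD, n = 3 each).

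Hadh, the short-chain hydroxyacyl-CoA dehydrogenase, stood at 341, 355 and 549 CPM in Control and at 409, 406 and 388 CPM in DKD. The DKD libraries were all between Control replicates 2 and 3, and the log2 fold change of −0.05 ± 0.21 was 0.20 without Control replicate 3. Echs1, the short-chain hydratase, stood at 223, 230 and 262 CPM in Control and at 227, 215 and 206 CPM in DKD, with overlap (−0.14 ± 0.12). The thiolase Acaa2 ranged from 205 to 233 CPM and from 209 to 306 CPM, DKD replicate 2 being inside the Control range (0.30 ± 0.17).

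Auxiliary enzymes serve the oxidation of unsaturated chains. In all 3 every DKD library was above every Control library, beside 15.5% of all genes. Eci1, an enoyl-CoA isomerase, stood at 70, 71.9 and 67.5 CPM in Control and at 153, 106 and 170 CPM in DKD. The Control libraries were close together and the DKD libraries spread widely (1.03 ± 0.18, edgeR adjusted p 0.0511). Its adjusted p was 0.0377 without DKD replicate 2 and 0.063 to 0.164 with each other library left out. Eci2, a related isomerase, stood at 127, 133 and 146 CPM in Control and at 196, 178 and 184 CPM in DKD (0.46 ± 0.12, edgeR adjusted p 0.0889). Decr1, the dienoyl-CoA reductase, ranged from 162 to 209 CPM and from 237 to 265 CPM (0.52 ± 0.15, edgeR adjusted p 0.106).

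The electron transfer flavoprotein is a dimer of Etfa and Etfb, whose values differed between subunits. Etfb stood at 218, 219 and 284 CPM in Control and at 476, 333 and 394 CPM in DKD. No library overlapped (0.74 ± 0.19, edgeR adjusted p 0.0875). Etfa ranged from 245 to 378 CPM in Control and from 273 to 295 CPM in DKD (−0.07 ± 0.19, and 0.15 without Control replicate 3). The Etfb to Etfa ratio per length was 1.39, 1.29 and 1.17 in Control and 2.66, 1.76 and 2.25 in DKD, without overlap. The gene model Gm45233 lies on the same strand over 58.2% of the exonic bases of Etfb and was at most 1.51 CPM in any library. Etfdh, which hands the electrons to ubiquinone, stood at 148, 158 and 220 CPM in Control and at 139, 164 and 134 CPM in DKD, with overlap (−0.27 ± 0.18).

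**Figure D3:**
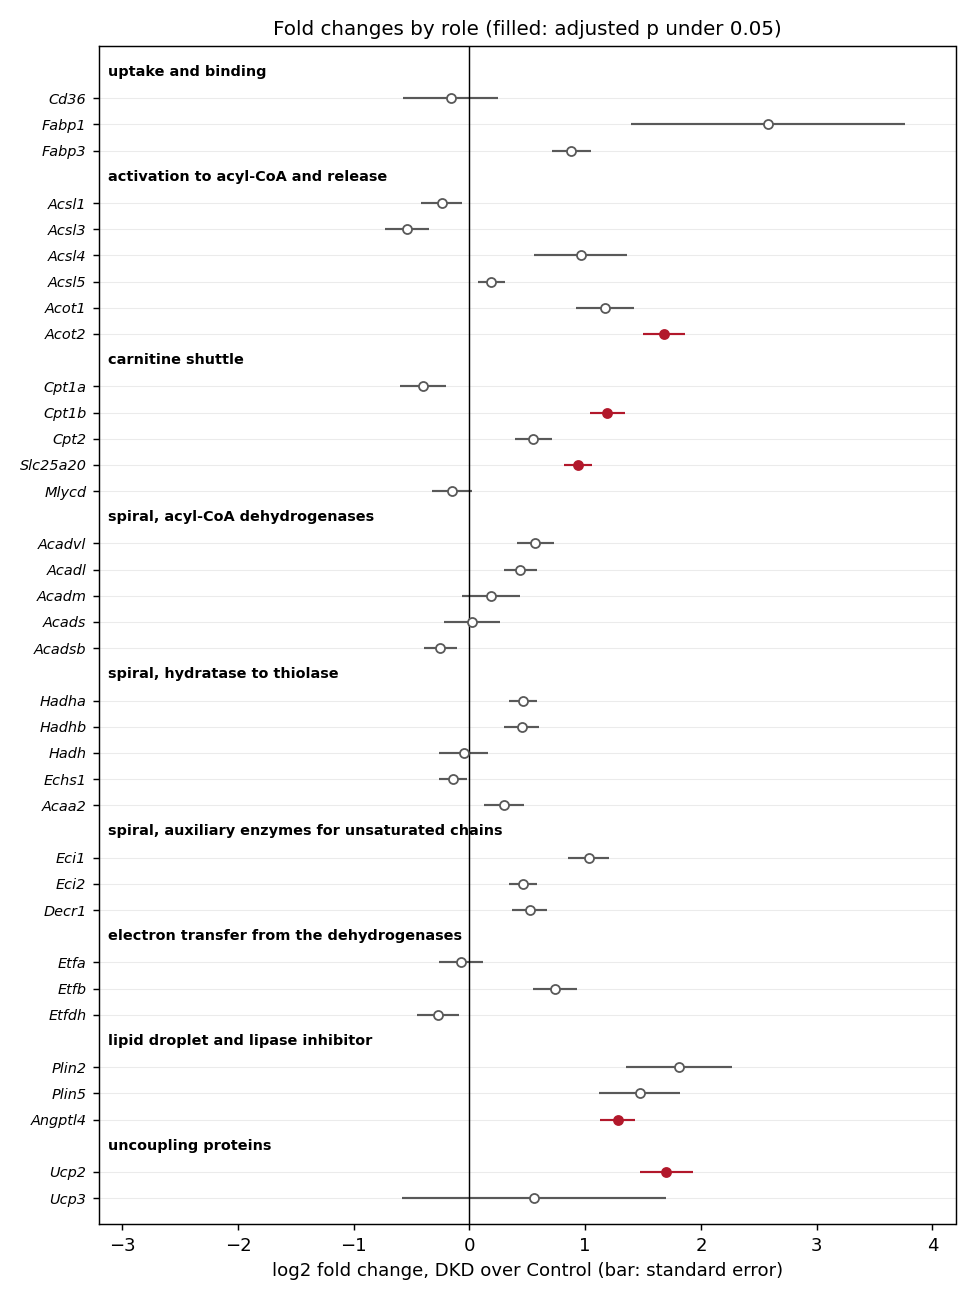
Log2 fold change of DKD over Control for each member with its standard error as a bar, grouped by role, with filled points for an edgeR adjusted p under 0.05. The 5 filled points lie between 0.94 and 1.70, and the spiral enzymes lie between −0.25 and 1.03.

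Lipid droplet genes and the lipase inhibitor had a median of 1.47 on the log2 fold change scale. In all 3 every DKD library was above every Control library, beside 15.5% of all genes. Angptl4, a secreted inhibitor of lipoprotein lipase that responds to fatty acids through PPARs, stood at 99.7, 87.5 and 91.7 CPM in Control and rose to 222, 194 and 261 CPM in DKD. The lowest DKD library was well above the highest Control library (1.28 ± 0.15, edgeR adjusted p 0.0203). Plin2, the droplet coat protein of most cells, stood at 78.8, 78.5 and 94.2 CPM in Control and at 190, 151 and 538 CPM in DKD. DKD replicate 3 was far above the rest, and the log2 fold change of 1.81 ± 0.46 (edgeR adjusted p 0.0898) was 1.03 without it. Plin5, the coat protein that tethers droplets to mitochondria in oxidative tissues, stood at 6.72, 4.23 and 5.23 CPM in Control and at 12.3, 9.7 and 22.8 CPM in DKD. Its log2 fold change of 1.47 ± 0.35 (edgeR adjusted p 0.0775) was also 1.03 without DKD replicate 3.

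Adipocyte markers varied between the same libraries. The 8 markers summed to 74.7, 54.6 and 0.106 CPM in Control and to 1.15, 0.984 and 155 CPM in DKD. Adipoq, an adipocyte hormone, was at 0 in Control replicate 3 and DKD replicates 1 and 2. Plin2, Plin5 and Angptl4 were highest in DKD replicate 3, and in DKD replicates 1 and 2 each was above all Control libraries. The part of fat cells in these values was not tested.

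Uncoupling proteins are carriers of the inner mitochondrial membrane. Ucp2, the widely expressed form, stood at 117, 117 and 76.9 CPM in Control and rose to 314, 277 and 415 CPM in DKD. All DKD libraries were far above all Control libraries (1.70 ± 0.23, edgeR adjusted p 0.0298, or 0.057 with no filter). Leukocytes also make Ucp2, and their 9 markers summed to 175, 199 and 99.6 CPM in Control and to 134, 273 and 255 CPM in DKD. DKD replicates 2 and 3 had the highest sums, and the sum in DKD replicate 1 was within the Control range. In 2 of the 9, Cd14 and Cd79a, every DKD library was above every Control library, beside 15.5% of all genes. In 7 the groups overlapped. The part of leukocytes in the Ucp2 values was not tested. Ucp3, the muscle form, was barely detected, at 1.12, 0.334 and 0.0661 CPM in Control against 0.239, 0.194 and 1.82 CPM in DKD. Its groups overlapped (0.56 ± 1.14).

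**Figure D4:**
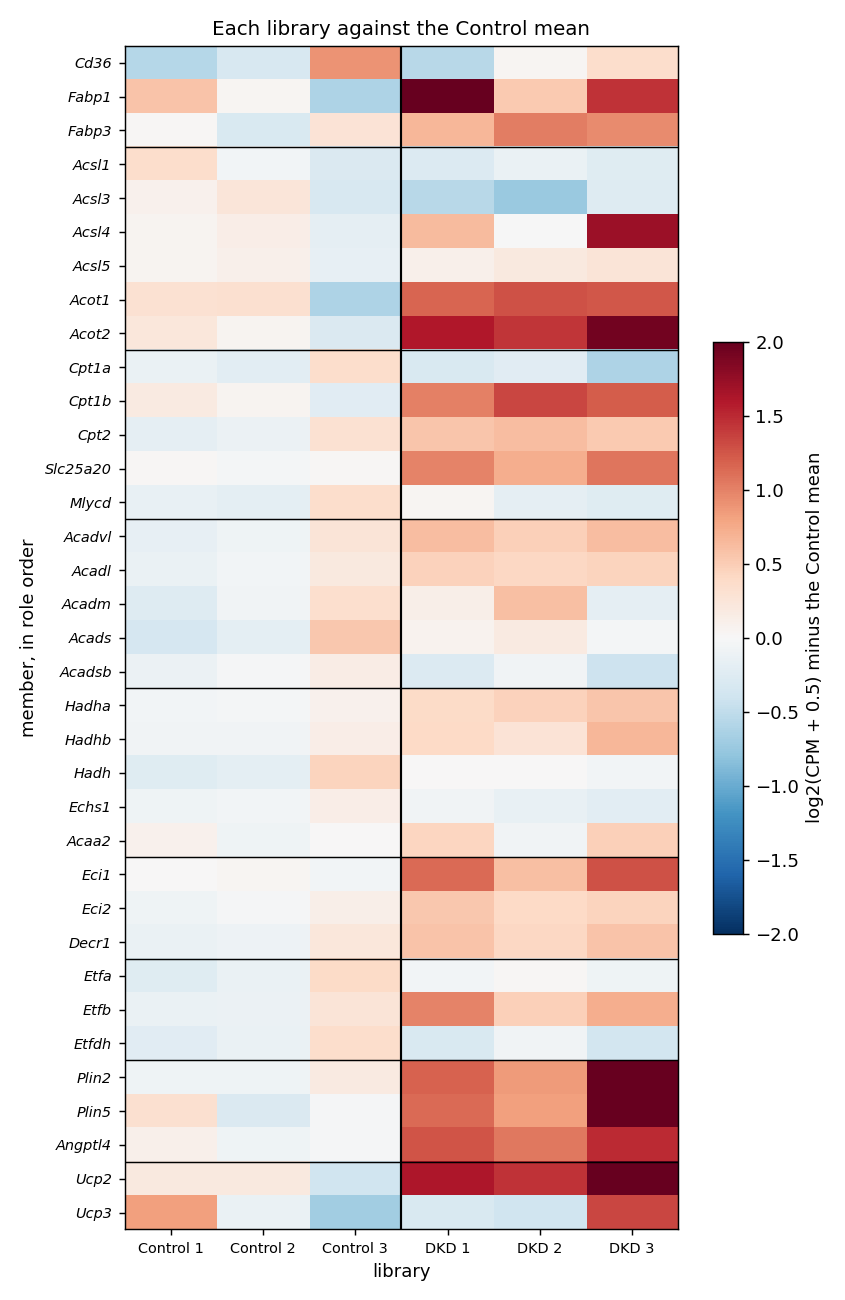
Each library against the Control mean for each member, on a log2 CPM scale with a small constant added, in role order, with red for above and blue for below. DKD replicate 3 is the highest DKD library for 16 of the 35 members, Plin2 and Plin5 among them, and Control replicate 3 is the highest Control library for 20.

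Levels per length spanned a wide range. In Control they ran from 0.274 ± 0.297 CPM per kilobase for Ucp3 and 0.553 ± 0.574 for Fabp1 up to 212 ± 51.7 for Etfa, 232 ± 65 for Hadh, 269 ± 42.3 for Etfb and 309 ± 66.8 for Acadm (SD, n = 3). Neighbours among these last 4 did not differ beyond their SD. In DKD the highest were Etfb at 449 ± 80.2 and Acadm at 354 ± 97.3, also within their spread. Together the members took 0.599%, 0.603% and 0.629% of the counts in Control and 0.66%, 0.733% and 0.735% in DKD, without overlap. The carnitine shuttle genes took 0.0821% to 0.0932% in Control and 0.0756% to 0.0919% in DKD. The median member stood −0.07, −0.08 and 0.14 log2 units from the Control mean in the Control libraries and 0.46, 0.41 and 0.55 in the DKD libraries.

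A further list held 52 other genes of fatty acid handling. Of these 3 rose and 0 fell by edgeR, beside 0.725% and 0.431% of all genes. An unadjusted p under 0.05 was reached by 13 that were higher and 9 that were lower, beside 11.8% and 10.9% of all genes. DESeq2 called 9 higher and 4 lower, beside 6.4% and 5.42%, and limma-voom 3 and 0. Pdk4, the kinase that switches off pyruvate dehydrogenase, stood at 69.8, 66 and 36.1 CPM in Control and rose to 256, 267 and 450 CPM in DKD (2.5 ± 0.33, edgeR adjusted p 0.0282). Its lowest level of all was in Control replicate 3. Mgll, the monoacylglycerol lipase, stood at 48.8, 42.6 and 36.6 CPM in Control and rose to 72.7, 72.9 and 90.3 CPM in DKD (0.88 ± 0.15, edgeR adjusted p 0.0477). None of the 52 passed without Control replicate 1, Control replicate 2, DKD replicate 1 or DKD replicate 3.

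In the role of regulators and fuel switch, 2 of 13 genes rose, Pdk4 among them, beside 0.725% of all genes. A log2 fold change above 0 was seen in 4 and below 0 in 9, beside 50.2% of all genes above 0. The regulators named here were picked after their values were seen. Ppara, the gene of PPAR alpha, stood at 24.3, 27.7 and 36.9 CPM in Control and at 10.4, 15.6 and 13.4 CPM in DKD. No library overlapped (−1.18 ± 0.21, edgeR adjusted p 0.0527). Its partner Rxra had a log2 fold change of −0.39 ± 0.13, the coactivator Ppargc1a −0.38 ± 0.20 and the oestrogen-related receptor Esrra −0.07 ± 0.20.

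Other uptake and carnitine import genes did not pass in any of 9 cases. At an unadjusted p under 0.05, 0 were higher and 3 lower, beside 11.8% and 10.9% of all genes. DESeq2 called 0 higher and 2 lower, beside 6.4% and 5.42%. Lpl, the lipase that Angptl4 inhibits, stood at 284, 317 and 783 CPM in Control and at 169, 141 and 215 CPM in DKD. Every DKD library was lower, and Control replicate 3 was far above the rest (−1.40 ± 0.40, edgeR adjusted p 0.11). The lipoprotein receptor Vldlr had −0.43 ± 0.12, and the carnitine transporter Slc22a5, the last of the 3 and picked after its value was seen, had −0.78 ± 0.25.

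In acyl-CoA handling none of 10 passed by edgeR. At an unadjusted p under 0.05, 4 were higher and 1 lower, beside 11.8% and 10.9% of all genes. DESeq2 called 3 higher and 1 lower, beside 6.4% and 5.42%. Acsf2, an acyl-CoA synthetase, had 1.89 ± 0.35 (edgeR adjusted p 0.056) and the thioesterase Acot13 had 0.80 ± 0.18 (edgeR adjusted p 0.069). The lower gene, named after its value was seen, was Acaca, an acetyl-CoA carboxylase that makes malonyl-CoA, at −0.96 ± 0.26. Acacb, the other acetyl-CoA carboxylase on the list, had 0.48 ± 0.34 (edgeR adjusted p 0.452). The 7 further oxidation enzymes had a median of −0.40, and 0 were called by edgeR or DESeq2. At an unadjusted p under 0.05, 1 was higher and 2 lower, beside the same 11.8% and 10.9% of all genes. Decr2, a peroxisomal reductase, had 0.29 ± 0.11, and Acad11, an acyl-CoA dehydrogenase, had −0.49 ± 0.19. Control replicate 3 was the highest Control library for all 7. Of 13 further genes of droplet coats, lipases and their regulators 12 had a log2 fold change above 0, beside 50.2% of all genes. Mgll alone passed by edgeR, beside 0.725% of all genes rising. Unadjusted, 6 were higher and 0 lower at p under 0.05, beside the same 11.8% and 10.9%. DESeq2 called 4 higher and 0 lower, beside 6.4% and 5.42%. DKD replicate 3 was the highest DKD library for 11 of the 13, as it was for the 8 adipocyte markers. The lists are not independent, since Plin1, Cidea and Cidec are in both. Their log2 fold changes of 0.29 ± 2.02, 1.72 ± 2.12 and 0.02 ± 1.68 are among the 12 above 0, each smaller than its standard error.

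**Figure D5:**
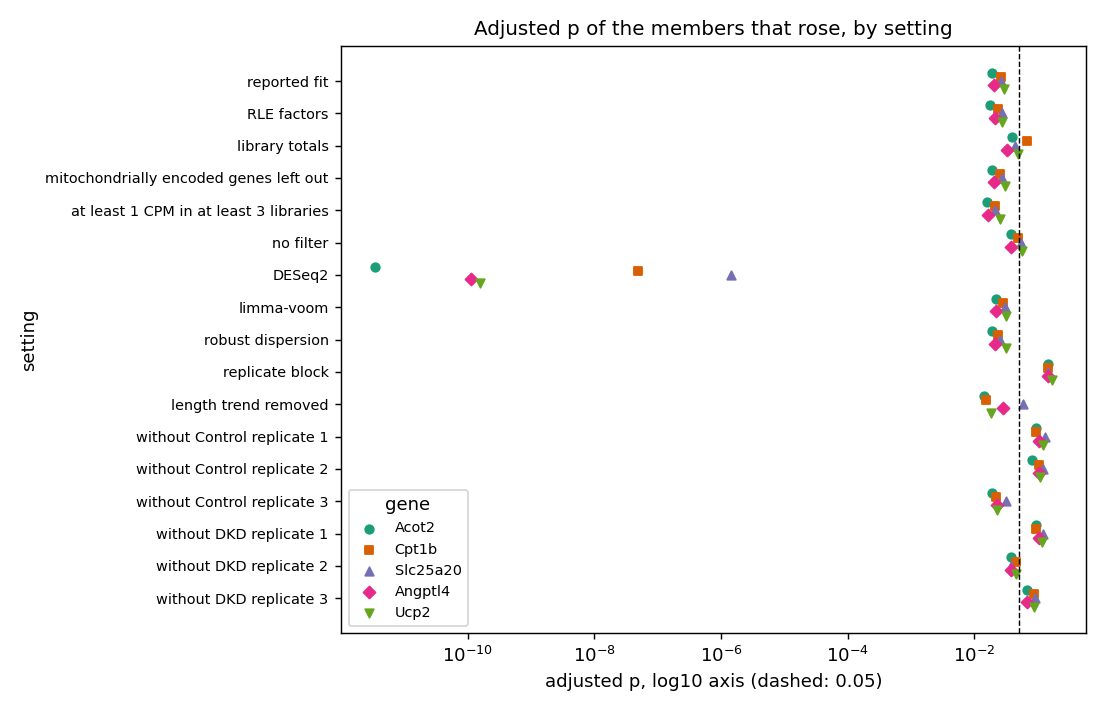
Adjusted p (log10 axis) of the 5 members that rose, in the reported fit and in 16 alternative settings, with a dashed line at 0.05. With the replicate block and without Control replicate 1, Control replicate 2, DKD replicate 1 or DKD replicate 3 all 5 lie to the right of the line.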

How the data were processed

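RNA-seq counts of 6 glomerular libraries were used, in the groups and with the numbers of their titles. The authors deposited whole-number counts for each Ensembl gene. Fastp, HISAT2, StringTie and edgeR with build GRCm39 are listed in the submitters' processing notes. For their versions, the annotation and whether strand was used in counting, the entry is: not given in the sources used here. Symbols, principal transcript lengths, overlaps and shared 31-base words came from GENCODE M21 (55141 of 55401 identifiers matched).

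Genes passing filterByExpr (minimum count 10) were scaled with TMM factors and tested in edgeR 4.0.16 (R 4.3.3) fitting only the group. CPM use the same factors. Standard errors are the absolute log2 fold change over the square root of F. The code was tested on simulated data. All library values are printed for members that rose, for the largest rise, largest fall and highest Control level per length in each role, and for paired forms, and other members have ranges or means. Of the 52 other genes, those past the threshold are named, otherwise the 2 smallest p in a role, with exceptions stated, and 1 gene past the threshold is not reported here. Members, lists and tests were chosen with earlier results of these data known. Alternatives were RLE factors, library totals, mitochondrially encoded genes left out, 2 other filters, DESeq2 1.42.0, limma-voom (limma 3.58.1), robust dispersion, blocking on replicate number, a transcript length trend removed, a threshold of 0.1 and leaving out each library.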

Additional observations from a re-analysis of the deposited data

How the results depend on the processing

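The 5 members that rose kept a positive log2 fold change in all 16 refits, between 0.80 and 1.81, with adjusted p from 3.44e-12 to 0.166. The count of members higher (5) was 3 with no filter, 16 with DESeq2 and 13 at an adjusted p under 0.1, and ran from 0 to 9 when 1 library was left out. The count lower was 0 in every setting. The members' median (0.46) was 0.34 with library totals. Over all genes (143 higher, 85 lower), library totals gave 174 lower, the 1 CPM minimum in 3 libraries 322 and 194, no filter 33 and 23, DESeq2 1165 and 987, the length trend removed 49 lower, and an adjusted p under 0.1 845 and 633. With 1 library left out these counts ran from 1 to 235 and from 0 to 151. For the 52 other genes (3 higher, 0 lower), no filter gave 0 higher, DESeq2 9 and 4, an adjusted p under 0.1 6 and 2, and library totals and the 1 CPM minimum 1 lower each. With 1 library left out the count higher ran from 0 to 3. With the replicate block 0 members, 0 other pathway genes and 0 genes of the whole table were called, and 18 members were higher at an unadjusted p under 0.05. That last count was 19 in the reported fit and 13 with the length trend removed, the lowest of the settings. Same-numbered libraries correlated at −0.183, 0.0663 and −0.224 in their deviations from the group means. The highest such value between groups was 0.268, for Control replicate 3 and DKD replicate 1. With 3 libraries per group these values cannot show whether same-numbered libraries were paired. Directions changed only for 7 members that were not called in the reported fit. Acads was −0.07 with library totals, −0.0025 with DESeq2 and −0.11 with the length trend removed, and ran from −0.14 to 0.34 with 1 library left out. The same ranges were −0.42 to 0.43 for Cd36, −0.25 to 0.05 for Mlycd, −0.06 to 0.38 for Acadm, −0.17 to 0.20 for Hadh, −0.19 to 0.15 for Etfa and −1.23 to 1.90 for Ucp3. The cause was not tested. Fabp1 and Ucp3 had the lowest levels, and the 1 CPM minimum removed them, leaving 33 members.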
